A study of Homo sapiens with 12 samples.

Results

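Cal27 is an established line of human oral squamous carcinoma cells. The comparison described here set Cal27 cells that had been conditioned on a stiff gel against cells that had been conditioned with lysophosphatidic acid (LPA) on a soft gel and then given an inhibitor of focal adhesion kinase (FAK). Its members were the 3 stiff-to-soft libraries and the 3 LPA-to-FAKi libraries, 6 of the 12 libraries of the series, paired by the replicate number in their labels, and the 15437 of 25382 gene symbols that passed a low-count filter. All 12 libraries came from wild-type Cal27 on collagen-coated polyacrylamide gels, with 5 days of conditioning and then 1 day on a second gel. Stiff-to-soft cells were conditioned at 20 kPa and replated at 0.48 kPa with no agent. LPA-to-FAKi cells were at 0.48 kPa in both phases, with LPA in the first and the inhibitor in the second. The series' design counts the first group among cells that keep a memory of their conditioning and the second among cells that do not, or that lose it. The other libraries were LPA-to-soft (LPA conditioning, then no inhibitor) and soft-to-soft (no agent in either phase), 3 each.

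The groups differed both in conditioning (stiffness against LPA) and in replating (no agent against inhibitor), so the parts of these 2 changes in a difference cannot be told apart from this contrast. LPA-to-soft levels are given for the genes called over all 12 libraries and for some others. The LPA-to-soft group shared the conditioning of one group and the replating of the other. Both groups come from 1 cell line, the labels name neither the inhibitor nor its dose, and they do not say whether replicates were separate cultures. The p-values therefore measure only how these libraries vary, and that variation may be technical. In bulk RNA, fewer cells of a kind and less RNA in each cell cannot be told apart.

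As background, FAK is a tyrosine kinase that sits in integrin adhesions, where cells grip collagen, fibronectin and laminin, and it passes tension on the matrix to the actin cytoskeleton and to growth signals. LPA acts through G protein-coupled receptors and raises actomyosin contractility. In stratified epithelium, growth signals through the EGF receptor, adhesion to matrix and the programme of cornification, in which small proline-rich proteins are crosslinked under the cell membrane, are tied to one another.

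Total counts were 101311628 to 107075060 in the stiff-to-soft libraries and 76083175 to 122311183 in the LPA-to-FAKi libraries. Mitochondrially encoded genes took 4.33% to 8.04% and 5.05% to 7.1% of them. The 10 epithelial markers were detected in all 6 libraries and summed to 8346.4 to 11360.7 CPM (CPM, the count scaled to library size, here with TMM factors) in stiff-to-soft and 9148.4 to 12753.1 CPM in LPA-to-FAKi. Fibroblast markers summed to 20.8 to 27.4 and 16.5 to 25.2 CPM, leukocyte markers to 17.3 to 22.7 and 21.4 to 50.3 CPM with PTPRC, CD3E and MS4A1 at 0, and endothelial markers to 13.8 to 39.4 and 8.77 to 18.0 CPM with KDR and CLDN5 at 0. Most of the endothelial sum was CDH5, with means of 23.3 and 11.2 CPM, and CD68, with means of 13.3 and 28.8 CPM, was a large share of the leukocyte sum. Both were among the genes that passed the threshold in a fit that left out soft-to-soft replicates 1 and 2, the 10-library fit (adjusted p = 0.0378 for CDH5 and 0.0464 for CD68), but not in the 12-library fit (0.0862 and 0.0957). What part cells of other types had in the results was not tested. PTK2, the gene of FAK, read 50.4, 52.5 and 55.5 CPM in stiff-to-soft replicates 1, 2 and 3 and 44.8, 46.4 and 50.1 CPM in the other group, a log2 difference of 0.17 ± 0.0595 (SE, n = 3 pairs) that missed the threshold (adjusted p = 0.303). The inhibitor acts on the protein, so this level is no check of the treatment. Each SE given here and below comes from the 12-library fit and is not the spread of the 3 pair differences.

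Fibronectin rose in stiff-to-soft, and thrombomodulin, 2 ligands of the EGF receptor and 1 small proline-rich protein fell. These 5 genes, FN1, THBD, EREG, HBEGF and SPRR2A, were 0.0324% of the 15437 tested (0.00648% higher and 0.0259% lower), at a Benjamini-Hochberg adjusted p under 0.05 in the edgeR quasi-likelihood test over all 12 libraries with replicate number as a block. In all, 1923 genes had an unadjusted p under 0.05, 1011 of them positive (6.55% of genes tested) and 912 negative (5.91%). The number of calls depended strongly on the model: it was 0 without the replicate block (453 at an unadjusted p under 0.05), 27 with limma voom, 349 with DESeq2, 254 (1.71% of 14840) in a fit of the 6 libraries alone, and 164 (1.01% of 16307) without soft-to-soft replicates 1 and 2. In these 2 libraries 42.9% and 42.2% of the counts from 1 to 19 were even. In the other 10, the 6 compared among them, 96.8% to 97.8% were even, so low counts followed different rules in the 2 sets of libraries. With the counts of those 10 libraries halved there were again 5 calls. Leaving out soft-to-soft replicate 1 alone gave 36 calls, and leaving out replicate 2 alone gave 195. Why the number of calls changed was not tested. All 5 genes were also called by DESeq2, by limma voom, in the 6-library fit and in the 10-library fit.

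FN1, fibronectin, is a matrix protein that integrins bind and stretch. Its level was 90.4, 172.6 and 247.7 CPM in stiff-to-soft replicates 1, 2 and 3, against 45.4, 90.1 and 154.9 CPM in LPA-to-FAKi. The groups overlapped because levels also differed between replicate numbers, but stiff-to-soft was the higher library in each pair. The log2 difference was 0.86 ± 0.103 (SE, n = 3 pairs), a 1.82-fold higher level (edgeR adjusted p = 0.0123), and the pairs gave 0.99, 0.94 and 0.68. Mean FN1 was 134.9 CPM in LPA-to-soft and 83.6 CPM in soft-to-soft, so LPA-to-FAKi lay nearest to soft-to-soft, and LPA-to-soft lay between the groups compared. LPA-to-soft differed from LPA-to-FAKi by 0.58 (adjusted p = 0.0752) and stiff-to-soft from LPA-to-soft by 0.29 (adjusted p = 0.497), neither past the threshold.

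THBD, thrombomodulin, is a membrane receptor for thrombin that keratinocytes carry. It read 79.2, 64.1 and 54.2 CPM in stiff-to-soft and 136.2, 108.9 and 91.2 CPM in LPA-to-FAKi, with no overlap between groups, as in 7.46% of all genes tested. The log2 difference of -0.77 ± 0.0537 (SE, n = 3 pairs, edgeR adjusted p = 0.000279) was nearly the same in each pair, at -0.78, -0.76 and -0.75. THBD was also the 1 gene called between stiff-to-soft and LPA-to-soft (log2 difference -0.46, adjusted p = 0.0496, 0.00648% of genes tested), and LPA-to-FAKi lay above soft-to-soft by 0.29 (adjusted p = 0.0431, in a contrast that called 0.564% of genes). Its mean was 91.0 CPM in LPA-to-soft and 91.7 CPM in soft-to-soft, so stiff-to-soft was low and LPA-to-FAKi high around a common middle.

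EREG and HBEGF encode epiregulin and heparin-binding EGF-like growth factor, ligands that are shed from the membrane and bind EGF receptor family members. EREG was 37.1, 29.8 and 32.8 CPM in stiff-to-soft and 56.1, 49.4 and 48.3 CPM in LPA-to-FAKi, and the groups did not overlap. Its log2 difference was -0.63 ± 0.0675 (SE, n = 3 pairs, edgeR adjusted p = 0.00735). HBEGF was 92.7, 46.8 and 56.4 CPM against 141.3, 79.4 and 77.9 CPM, with stiff-to-soft lower in every pair although replicate 1 of stiff-to-soft exceeded replicates 2 and 3 of LPA-to-FAKi. Its log2 difference was -0.61 ± 0.0706 (SE, n = 3 pairs, edgeR adjusted p = 0.0111). For both genes LPA-to-soft lay between the groups, with means of 41.6 CPM for EREG and 78.8 CPM for HBEGF. Soft-to-soft means, 46.2 CPM for EREG and 88.2 CPM for HBEGF, also lay between them.

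SPRR2A is a small proline-rich protein of the cornified envelope. It was 45.4, 15.4 and 14 CPM in stiff-to-soft and 142.8, 52.6 and 26.6 CPM in LPA-to-FAKi. Replicate 1 was the highest library of each group, which made the groups overlap, and stiff-to-soft was the lower library of each pair, by -1.65, -1.77 and -0.93. The log2 difference was -1.47 ± 0.155 (SE, n = 3 pairs), a 2.77-fold lower level (edgeR adjusted p = 0.00735). Members of this family are close copies, so the share of reads that belongs to each one is uncertain.

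**Figure D1:**
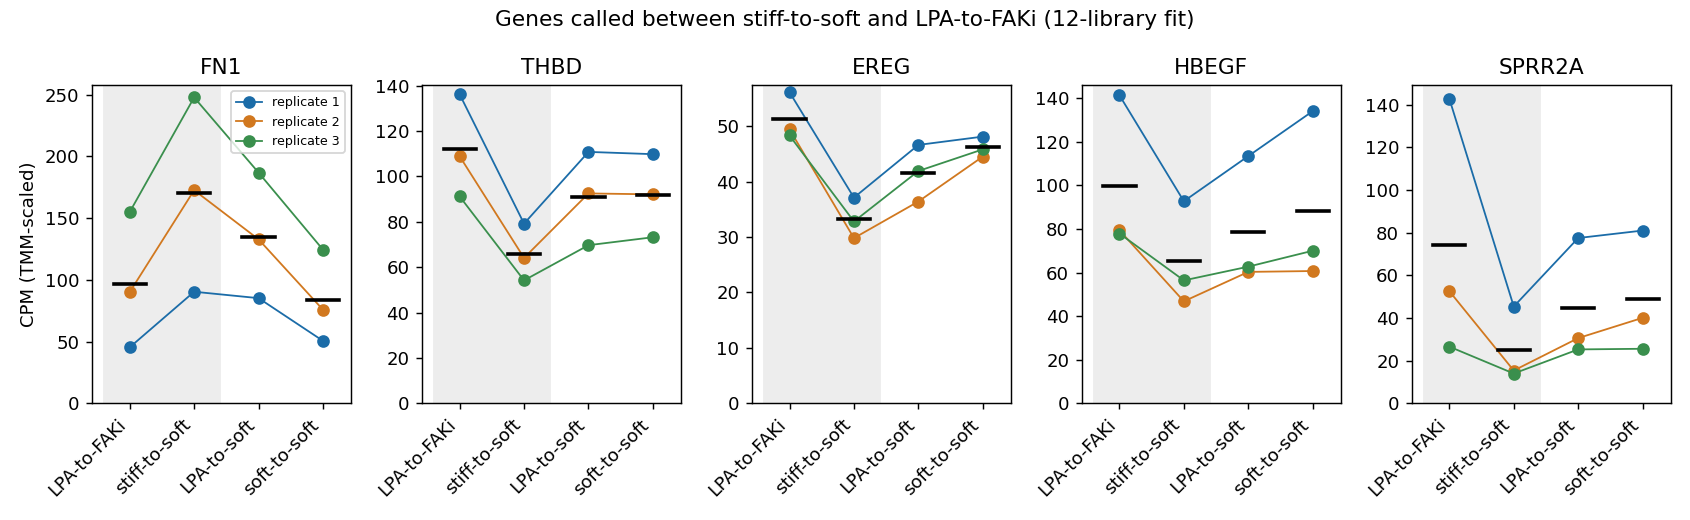
Levels of FN1, THBD, EREG, HBEGF and SPRR2A (CPM with TMM scaling, linear axes from 0) in the 4 conditions, with 1 line for each replicate number and a black bar for the mean of 3 libraries. The 2 conditions compared are shaded, and in all 3 pairs FN1 is higher and the other genes are lower in stiff-to-soft.

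Calls were sensitive to single libraries. When each of the 12 libraries was left out in turn, THBD was called in 12 of 12 fits, SPRR2A in 10, and EREG, FN1 and HBEGF in 9 each. Without stiff-to-soft replicate 2 the 1 call was THBD, and without LPA-to-FAKi replicate 2 the calls were THBD and LCE3D, so 4 of the 5 genes were lost in both fits. When a whole replicate number was left out, all 5 were called without number 1, none without number 2 (edgeR, 1404 genes at an unadjusted p under 0.05) and only SPRR2A of the 5 without number 3. The adjusted p of THBD was 0.0556 without number 2 and 0.0526 without number 3. Leaving out soft-to-soft replicate 2, a library outside the comparison, gave 195 calls.

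The 164 genes of the 10-library fit are described next. That fit was one of the alternatives listed at the outset, but it was taken up for gene description after the small count of the 12-library fit was seen. Most of these genes missed the threshold in the 12-library fit, where 75 of the 164 had an adjusted p under 0.10, so both values are given for each gene named. Of the 164, 105 were higher in stiff-to-soft (0.644% of genes tested) and 59 lower (0.362%), 162 had the same sign in all 3 pairs, and 135 were also called in the 6-library fit, which had 170 higher (1.15%) and 84 lower (0.566%). The 10-library and 6-library fits share the 6 libraries compared, so the second is no independent check of the first.

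**Figure D2:**
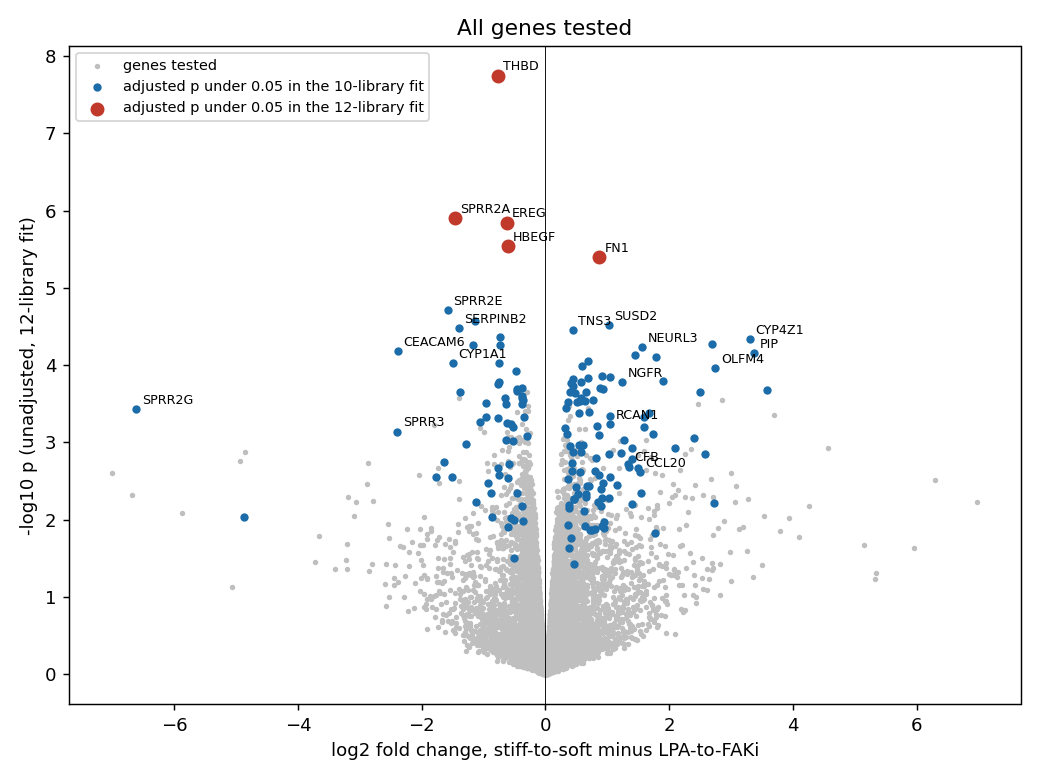
Log2 fold change of stiff-to-soft against LPA-to-FAKi (x axis) and -log10 of the unadjusted p (y axis) from the 12-library fit, for 15437 genes. Red points are the 5 genes called in that fit and blue points those called only in the 10-library fit, which reach far down the y axis. Folds of genes near 0 counts, such as SPRR2G, are fitted values and set no bound.

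Among extracellular matrix genes, 26 of 34 tested were positive with a median log2 fold change of 0.34, against 7584 of 15437 positive and a median of -0.004 over all genes tested. FN1 was the only member called in the 12-library and 10-library fits. At an unadjusted p under 0.05 (edgeR, 12-library fit), 11 members were positive and 3 negative, against 6.55% and 5.91% of all genes tested. The 6-library fit called 9 members, all higher, against 1.15% of all genes tested in that fit. Among the 9 was SPARC, a collagen-binding glycoprotein (301.6, 770.2 and 891.5 CPM against 232.3, 502.1 and 567.9 CPM). TNC, tenascin C, an adhesion-modulating protein, was another (514.9, 531.3 and 483.6 CPM against 300.9, 302.3 and 404.4 CPM). Adjusted p-values in the 12-library, 10-library and 6-library fits were 0.178, 0.111 and 0.0152 for SPARC and 0.218, 0.0757 and 0.0355 for TNC. TNC did not overlap between groups, whereas SPARC did. LAMB3, a laminin chain that helps to anchor basal keratinocytes, had a value of the other sign, with a mean of 913.8 CPM against 1275.0 CPM in LPA-to-FAKi (adjusted p = 0.268).

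The EGF receptor family and its ligands had 8 of 13 tested members negative, with a median of -0.25. EREG and HBEGF were called. TGFA, another ligand, averaged 47.8 CPM after stiff conditioning and 73.2 CPM after LPA and inhibitor (adjusted p = 0.116), AREG 1.9 and 3.37 CPM (adjusted p = 0.132), and the receptor EGFR 250.7 and 302.3 CPM (adjusted p = 0.418). LPA-to-soft means were 47.4 CPM for TGFA and 1.94 CPM for AREG, close to stiff-to-soft. Of the 5 positive members 2 had an unadjusted p under 0.05: ERRFI1, an inhibitor of the receptor, at 249.7 against 216.3 CPM (adjusted p = 0.337), and the ligand EPGN, at 0.102 CPM and listed at 0 in the 3 LPA-to-FAKi libraries (adjusted p = 0.169). A list of ERK feedback inhibitors and related genes that EGF receptor signalling induces had 12 of 15 negative, with a median of -0.31. Of these, IER3, which was also listed as an immediate early gene, and DUSP6, an ERK phosphatase, were called in the 10-library fit (edgeR adjusted p = 0.041 and 0.0464). Neither was called in the 12-library fit (0.0736 and 0.268). DUSP6 read 25.1, 20.1 and 26.4 CPM against 43.1, 36.8 and 30.2 CPM, without overlap.

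Keratinocyte differentiation genes had 37 of 49 tested members negative and a median of -0.37, with pair medians of -0.54, -0.42 and -0.05, so pair 3 showed little of it. In the 12-library fit 1 member was called, SPRR2A, and in the 10-library fit 8, all lower, against 0.362% of all genes tested in that fit. At an unadjusted p under 0.05 (edgeR, 12-library fit), 20 members were negative and 4 positive, against 5.91% and 6.55% of all genes tested. All 11 SPRR genes of the table were tested and had negative estimates, and 1, 7 and 6 were called in the 12-library, 10-library and 6-library fits. The pairs did not share a sign for SPRR2B, SPRR2C, SPRR2F and SPRR4 (edgeR adjusted p = 0.977, 0.503, 0.611 and 0.854 in the 12-library fit). SPRR2B (means of 0.092 and 0.107 CPM) and SPRR4 (0.117 and 0.194 CPM) were also near 0, so the 11 do not show a uniform fall. SPRR1B read 396.4, 54.6 and 38.8 CPM in stiff-to-soft and 1092.8, 240.0 and 83.9 CPM in LPA-to-FAKi (log2 difference -1.51 ± 0.393, SE, adjusted p = 0.167, and 0.0266 in the 10-library fit). SPRR3 read 8.87, 2.04 and 0.789 CPM against 47.1, 14.8 and 3.22 CPM (adjusted p = 0.109, and 0.0124 in the 10-library fit). In both genes the replicate number moved the level more than the condition did, and stiff-to-soft was below its partner in each pair. SPRR2G was at 6.64 CPM in LPA-to-FAKi replicate 1 and under 0.3 CPM in the other 5 libraries, so its value rests on that library.

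Keratins of activated and hyperproliferative epidermis showed the same sign. KRT6A was 2821.9, 697.1 and 542.8 CPM in stiff-to-soft and 4311.2, 1621.4 and 1130.6 CPM in LPA-to-FAKi (adjusted p = 0.177, and 0.0122 in the 10-library fit). KRT16, its partner in keratin filaments, was 450.9, 72.2 and 58.4 CPM against 925.5, 231.0 and 106.0 CPM (adjusted p = 0.221, and 0.0278 in the 10-library fit). KRT17 and KRT6B were also called lower in the 10-library fit (adjusted p = 0.0105 and 0.0305, against 0.101 and 0.252 in the 12-library fit). Mean KRT6A and KRT17 were lower in LPA-to-FAKi (2354.4 and 2399.7 CPM) than in soft-to-soft (2376.8 and 2615.9 CPM). Mean KRT16 and KRT6B were higher in LPA-to-FAKi (420.8 and 151.5 CPM) than in soft-to-soft (350.1 and 114.9 CPM). LPA-to-soft means were 1489.7 CPM for KRT6A, 2006.6 CPM for KRT17, 201.3 CPM for KRT16 and 79.0 CPM for KRT6B. KRT6A and KRT6B are near-identical copies, so their separate values are uncertain. Of 25 basal keratinocyte genes 18 were negative. NGFR, the low-affinity nerve growth factor receptor that marks basal keratinocytes, was among the 7 positive ones, at 44.3, 40.9 and 53.7 CPM against 12.5, 14 and 37.8 CPM (log2 difference 1.24 ± 0.224, SE, adjusted p = 0.0725, and 0.0315 in the 10-library fit). LPA-to-soft NGFR averaged 47.0 CPM and soft-to-soft 50.0 CPM. LPA-to-FAKi was lower than soft-to-soft by 1.30 on the log2 scale (edgeR adjusted p = 0.0347), so LPA-to-FAKi had the lowest mean. Its libraries did not all stand apart, as its replicate 3 (37.8 CPM) was above replicate 2 of LPA-to-soft (36.1 CPM) and of soft-to-soft (34.0 CPM).

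Complement and coagulation genes had 13 of 18 positive, with a median of 0.17, and the 10-library fit called 2 higher, CFB and C3, and 1 lower, THBD. PIGR and OLFM4, described with them, were picked from the higher calls of that fit after their values were seen, so their direction was fixed by the choice. CFB, complement factor B, was 402.1, 450.4 and 500.3 CPM in stiff-to-soft and 163.9, 134.3 and 266.0 CPM in LPA-to-FAKi, with no overlap (log2 difference 1.35 ± 0.337, SE, adjusted p = 0.148, and 0.00823 in the 10-library fit). C3, the central complement protein, was 1116.3, 1162.0 and 1686.1 CPM against 525.0, 478.2 and 1052.3 CPM (adjusted p = 0.213, and 0.0492 in the 10-library fit). PIGR, which carries immunoglobulin A across epithelia, was 418.7, 344.7 and 482.1 CPM against 128.6, 94.9 and 257.5 CPM (adjusted p = 0.148, and 0.0102 in the 10-library fit). In each of these 3 genes the smallest log2 difference was in pair 3. OLFM4, a secreted glycoprotein, had the largest log2 difference, 2.75 ± 0.47 (SE), among the higher genes of the heatmap, with 236.2, 110.3 and 266.3 CPM against 31.1, 9.69 and 88.9 CPM (adjusted p = 0.0672, and 0.00689 in the 10-library fit).

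In the list of NF-kB and cytokine genes 30 of 37 were positive with a median of 0.33, and 21 had the same positive sign in all 3 pairs. Over all genes tested, 49.1% were positive and 18.7% were positive in all 3 pairs. No member of the list was called in the 12-library fit. There, 11 were positive and 1 negative at an unadjusted p under 0.05 (edgeR), against 6.55% and 5.91% of all genes tested. The 10-library fit called 4 members and the 6-library fit 9, all higher. CCL20, a chemokine for dendritic cells and T cells, was 199.0, 154.4 and 323.4 CPM against 44.8, 44.7 and 184.6 CPM (adjusted p = 0.156, and 0.02 in the 10-library fit). CXCL3, a neutrophil chemokine, was 13.6, 12.7 and 22.2 CPM against 7.0, 6.72 and 13.2 CPM (adjusted p = 0.16, and 0.00359 in the 10-library fit). The other 2 called in the 10-library fit were CSF1, the macrophage growth factor, and CCL2, a monocyte chemokine. Means in LPA-to-soft were 188.9 CPM for CCL20 and 13.7 CPM for CXCL3, nearer to stiff-to-soft (225.6 and 16.2 CPM) than to LPA-to-FAKi (91.3 and 8.96 CPM).

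Interferon-stimulated genes had 46 of 51 positive, with a median of 0.28 and pair medians of 0.55, 0.04 and 0.23. None was called in the 12-library fit. There, 18 were positive and 0 negative at an unadjusted p under 0.05 (edgeR), against 6.55% and 5.91% of all genes tested. EPSTI1 and PARP14 were called in the 10-library fit (adjusted p = 0.0425 and 0.02, against 0.115 and 0.213). For this list stiff-to-soft lay below both other groups without the inhibitor in value: its median log2 difference was -0.24 from LPA-to-soft and -0.31 from soft-to-soft, and that of LPA-to-FAKi from soft-to-soft was -0.51. EPSTI1 averaged 22.7 CPM in soft-to-soft, 19.0 CPM in LPA-to-soft, 14.1 CPM in stiff-to-soft and 8.36 CPM with the inhibitor. All 35 genes of G2 and M phase had positive estimates, with a median of 0.19, but the pair medians were 0.59, 0.08 and -0.06, so the sign was not shared by the pairs and pair 1 was by far the highest. None of the 35 was called, and 9 were positive at an unadjusted p under 0.05 (edgeR), against 6.55% of all genes tested. S phase genes had a median of -0.05.

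**Figure D3:**
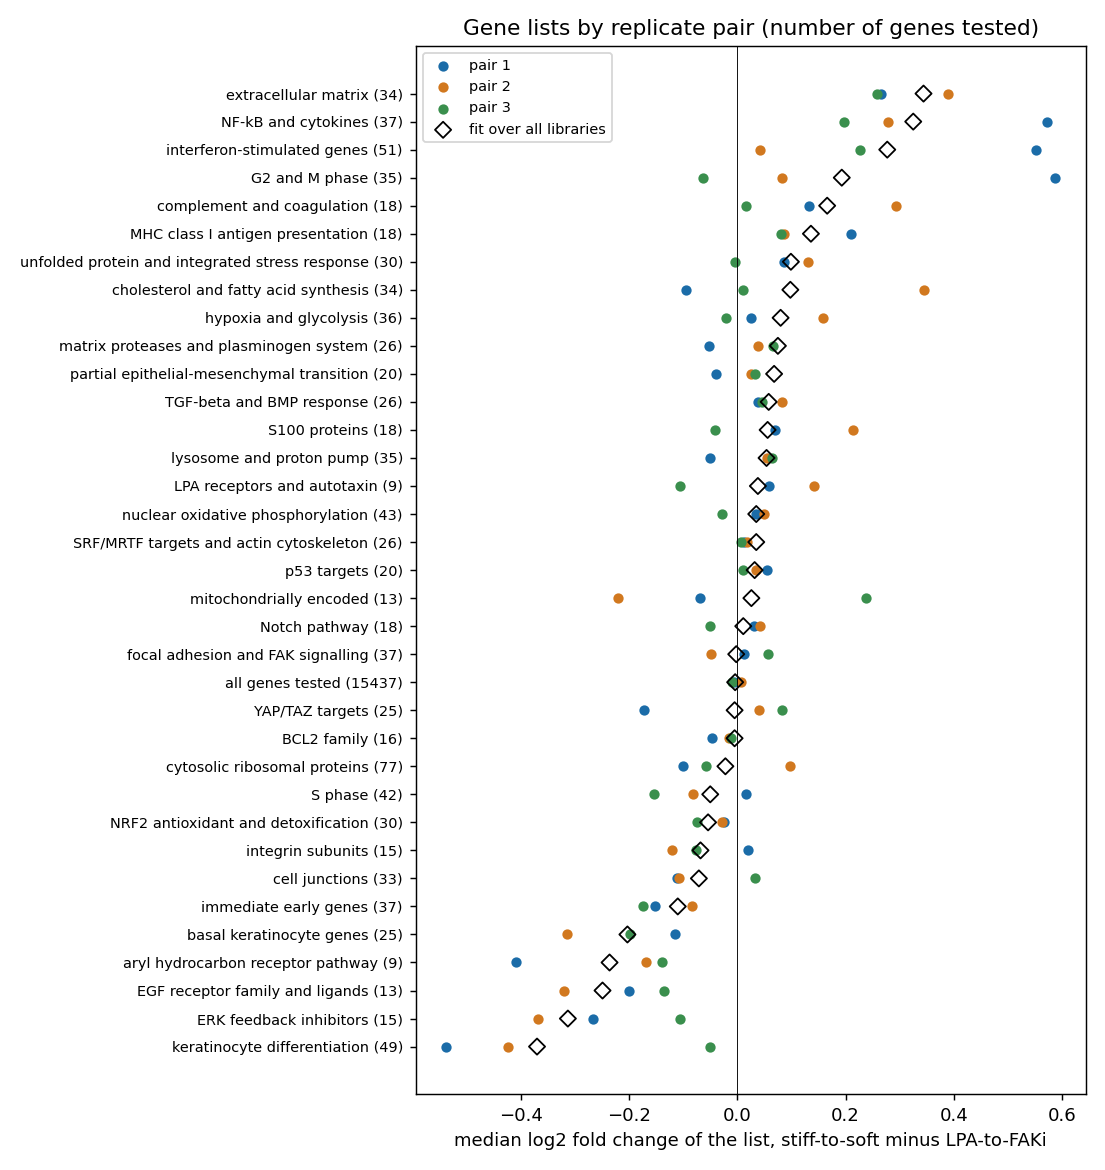
Median log2 fold change of each gene list, stiff-to-soft minus LPA-to-FAKi (x axis), for the fit over 12 libraries (diamonds) and for each replicate pair (points), with the number of genes tested in brackets. Extracellular matrix and NF-kB genes are above 0 in all 3 pairs, keratinocyte differentiation is below 0 in all 3, and G2 and M phase genes change sign in pair 3.

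Lists tied to adhesion and force were centred near 0. The median was -0.002 for 37 focal adhesion and FAK signalling genes, -0.07 for 15 integrin subunits, -0.005 for 25 YAP/TAZ targets and 0.035 for 26 SRF/MRTF targets and actin genes. None of their members was called in the 12-library fit, and 5, 2, 3 and 3 of them were positive and 4, 0, 3 and 3 negative at an unadjusted p under 0.05 (edgeR). Over all genes tested, 6.55% were positive and 5.91% negative at that threshold. A median near 0 therefore does not say that no member moved, as members of both signs were under the threshold in all but the integrin list. TNS3, a tensin that links integrins to actin, was called in the 10-library fit (267.0, 375.4 and 489.6 CPM against 184.7, 284.5 and 371.2 CPM, adjusted p = 0.0119, and 0.0542 in the 12-library fit). Within the YAP/TAZ list the 10-library fit called TGFB2, a growth factor, higher (53.7, 84.9 and 98.9 CPM against 35.7, 53.7 and 47.4 CPM, adjusted p = 0.0486) and FOSL1, an AP-1 subunit, lower (368.3, 297.5 and 245.4 CPM against 664.1, 532.4 and 360.1 CPM, adjusted p = 0.0266). Neither passed in the 12-library fit (adjusted p = 0.0736 and 0.161).

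CYP1A1, the detoxifying oxidase that the aryl hydrocarbon receptor induces, was 11.7, 18.3 and 6.17 CPM in stiff-to-soft and 30.1, 39.2 and 23.3 CPM in LPA-to-FAKi, without overlap (log2 difference -1.49 ± 0.251, SE, adjusted p = 0.0636, and 0.021 in the 10-library fit). Its mean was 12.2 CPM in LPA-to-soft and 13.2 CPM in soft-to-soft, and LPA-to-FAKi was above soft-to-soft by 1.35 on the log2 scale (edgeR adjusted p = 0.0456). The means of the 3 conditions without inhibitor lay between 12.1 and 13.2 CPM. Single libraries spread more widely, and LPA-to-soft read 9.04, 23.3 and 4.21 CPM. LPA-to-soft differed from LPA-to-FAKi by -1.62 on the log2 scale, which missed the threshold (edgeR adjusted p = 0.0752). SERPINB2, an inhibitor of urokinase, was 39.1, 14.6 and 15.4 CPM against 139.8, 43.0 and 24.8 CPM (adjusted p = 0.0542, and 0.00936 in the 10-library fit). CEACAM6, an adhesion molecule of epithelial and myeloid cells, was 26.5, 4.65 and 2.08 CPM against 144.0, 32.4 and 7.96 CPM (adjusted p = 0.0596, and 0.00359 in the 10-library fit).

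LPA-to-soft means were nearer to stiff-to-soft than to LPA-to-FAKi for 75 of the 105 higher and 48 of the 59 lower genes of the 10-library fit. LPA-to-FAKi was the most extreme of the 4 conditions for 90 and 51 of them, stiff-to-soft was the most extreme in the other direction for 88 and 49, and both held for 73 and 41. The genes were chosen for a difference between these groups, which by itself places both at the ends, so these counts are a description only.

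**Figure D4:**
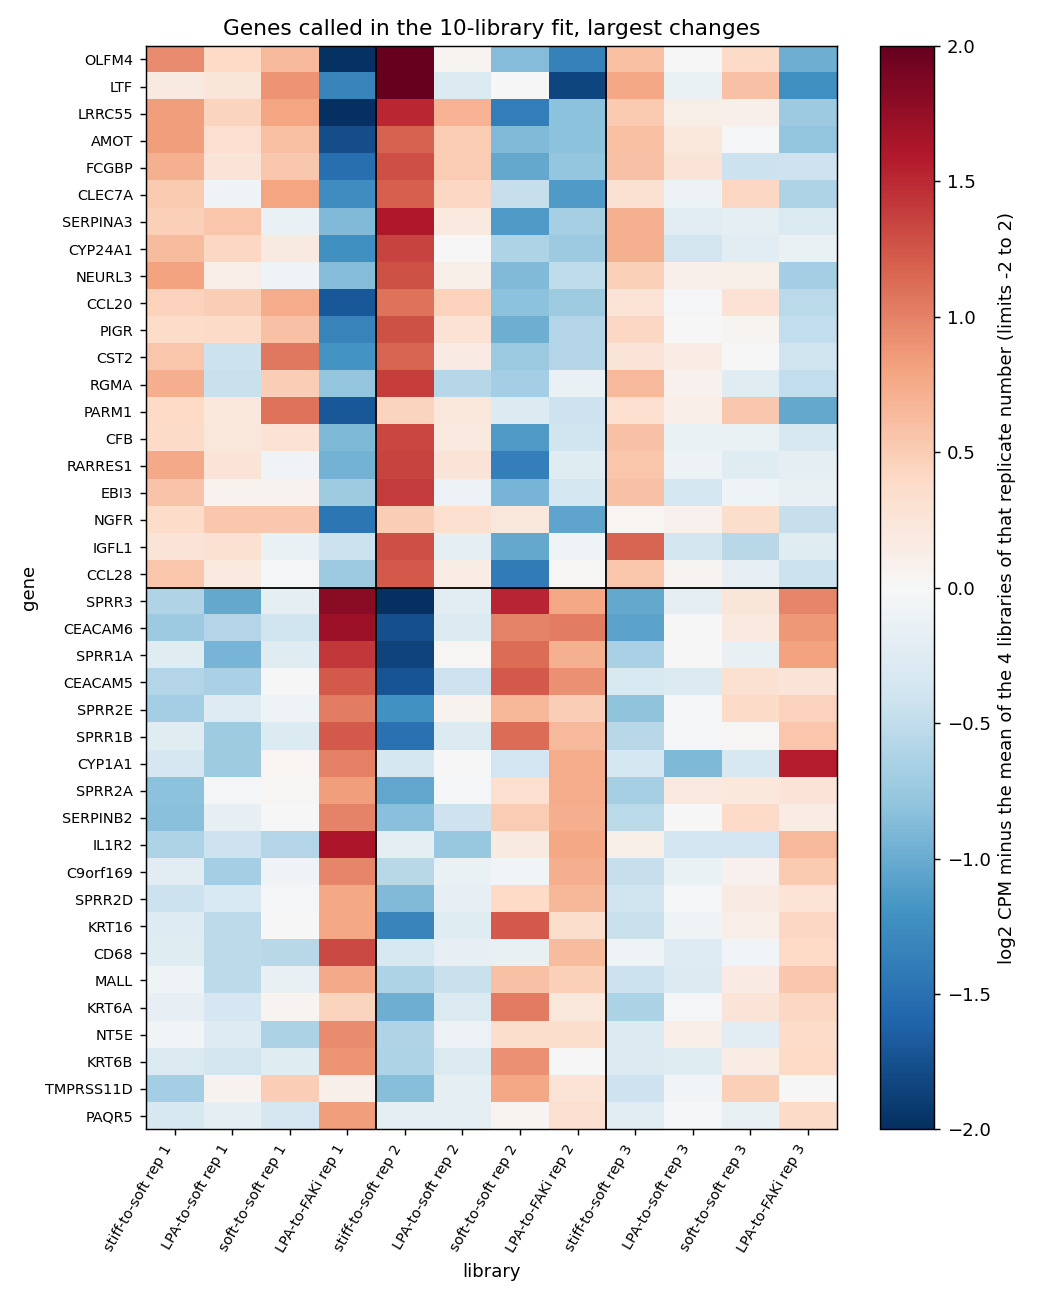
Log2 CPM of each library minus the mean of the 4 libraries with the same replicate number (colour, limits -2 to 2), for the 20 genes with the largest fold change in each direction among those called in the 10-library fit with a mean of at least 5 CPM. Stiff-to-soft lies above LPA-to-FAKi of its replicate number in the upper 20 rows and below it in the lower 20, as the same sign in 3 pairs was a condition for being shown, and LOC symbols were left out.

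Promoters of some of the genes that moved together, all of them with a match, are shown so that a reader can compare their letters. The sequences are the 200 bases before the transcription start in the RefSeq table of build GRCh38.p14, whereas the counts were made on hg19. Of the genes tested, 7811 had exactly 1 promoter in that table, 48 of them among the 105 higher and 31 among the 59 lower genes. The 250 bases before each start were searched on both strands for AP-1 (TGANTCA), TEAD (GGAATG), the cyclic AMP response element (TGAC followed directly by GTCA), the interferon-stimulated response element (GAAA and GAAA with 2 bases between), E2F (TTTGGCG) and, added after the values were seen, the NF-kB site. An AP-1 match was present in 8 of 31 lower genes (25.8%), 4 of 48 higher genes (8.33%) and 4.48% of all. The 8 were CD68, LINC00460, SERPINB2, SPRR1A, SPRR1B, SPRR2A, SPRR2G and SPRR3, of which 5 belong to 1 family and share sequence. An NF-kB match was present in 7 of 48 higher genes (14.6%), 0 of 31 lower genes and 6.02% of all. The 7 were CCL20, CXCL3, CYP4Z1, LCN2, LRRC55, SDC4 and TRIM31. TEAD matches were in 10.4% of higher, 19.4% of lower and 9.79% of all promoters, interferon-stimulated response elements in 8.33%, 0% and 2.61%, cyclic AMP response elements in 2.08%, 0% and 3.03%, and E2F sites in 0%, 0% and 2.52%. A match describes letters and not a bound site.

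Capitals mark the matches, and each line gives the promoter 5′ to 3′ on the strand of its gene. In the SPRR genes, which were lower in stiff-to-soft, the AP-1 match starts at -108 from the transcription start in SPRR1A, at -141 and -111 in SPRR1B, at -197 in SPRR2A and at -170 in SPRR3, and the remaining capitals are TEAD matches.
SPRR1A, chr1:152983881-152984080, plus strand: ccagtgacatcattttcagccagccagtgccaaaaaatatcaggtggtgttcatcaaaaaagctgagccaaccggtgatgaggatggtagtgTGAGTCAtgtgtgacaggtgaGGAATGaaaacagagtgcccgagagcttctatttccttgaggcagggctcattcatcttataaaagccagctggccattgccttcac
SPRR1B, chr1:153031003-153031202, plus strand: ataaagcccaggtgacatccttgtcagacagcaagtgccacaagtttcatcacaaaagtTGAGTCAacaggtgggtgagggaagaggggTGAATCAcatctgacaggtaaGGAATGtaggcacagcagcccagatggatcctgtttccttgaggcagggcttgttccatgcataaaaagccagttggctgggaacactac
SPRR2A, chr1:153057513-153057712, minus strand: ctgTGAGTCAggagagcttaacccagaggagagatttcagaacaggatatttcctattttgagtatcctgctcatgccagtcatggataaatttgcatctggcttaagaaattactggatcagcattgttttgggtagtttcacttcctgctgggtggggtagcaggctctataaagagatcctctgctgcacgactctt
SPRR3, chr1:153001549-153001748, plus strand: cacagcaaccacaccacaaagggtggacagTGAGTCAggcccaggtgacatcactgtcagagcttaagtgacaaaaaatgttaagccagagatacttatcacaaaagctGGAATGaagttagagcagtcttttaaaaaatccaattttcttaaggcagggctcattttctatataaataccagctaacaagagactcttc

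Among the higher genes, CCL20 and CXCL3 have NF-kB matches that start at -79, with a second, overlapping match at -78 in CXCL3, and CCL20 also has a TEAD match at -45. FN1 has a cyclic AMP response element at -183.
CCL20, chr2:227813642-227813841, plus strand: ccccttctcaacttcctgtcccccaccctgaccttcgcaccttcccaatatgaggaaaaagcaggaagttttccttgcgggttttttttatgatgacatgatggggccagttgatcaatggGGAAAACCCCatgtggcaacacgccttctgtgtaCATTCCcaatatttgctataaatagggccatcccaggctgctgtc
CXCL3, chr4:74038690-74038889, minus strand: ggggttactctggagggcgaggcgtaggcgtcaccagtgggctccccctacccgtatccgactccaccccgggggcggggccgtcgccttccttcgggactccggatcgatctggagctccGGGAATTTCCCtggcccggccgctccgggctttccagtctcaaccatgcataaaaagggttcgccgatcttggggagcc
FN1, chr2:215436069-215436268, minus strand: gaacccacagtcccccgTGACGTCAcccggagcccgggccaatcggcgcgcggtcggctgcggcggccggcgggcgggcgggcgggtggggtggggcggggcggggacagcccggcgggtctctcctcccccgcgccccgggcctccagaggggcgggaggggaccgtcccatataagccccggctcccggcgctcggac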

How the data were processed

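RNA sequencing counts of 12 Cal27 libraries were used. Per the labels' protocols, RNeasy columns yielded the RNA and the library kit was TruSeq Stranded. The authors deposited whole-number read counts by gene symbol, and normalized log2 values, which entered no test. The build hg19 and the tools STAR, HTSeq, cutadapt, FastQC and DESeq2 are listed in the submitters' processing notes. Not given in the sources used here: versions, strand setting and annotation. Of 25382 symbols, 5880 were at 0 in all libraries. Total counts were 62953957 to 122311183 per library, which leaves genes under about 1 CPM imprecise. Spreadsheet-converted date symbols numbered 28 (0.1781% of counts).

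From these counts, differences were tested by edgeR 4.0.16 under R 4.3.3 (TMM scaling, filterByExpr by condition, quasi-likelihood F test, Benjamini-Hochberg adjustment) over 12 libraries, with the 4 conditions and replicate number as a block. Log2 CPM used a prior count of 2. The SE of a log2 difference was its absolute value divided by the square root of the F statistic. It therefore rests on a spread estimated over all 12 libraries. The numbers come from the sample titles and were taken as pairing the samples: same-numbered libraries, after condition means were removed, correlated at 0.312 to 0.659 (18 pairs), and differently numbered ones at -0.517 to 0.0372 (36 pairs). Removing the means of 3 libraries by itself pushes the second range below 0, so that range is no separate evidence of pairing. What a number marks is not in the labels. Alternatives used limma 3.58.1 and DESeq2 1.42.0, other filters, scaling and sets of libraries. The code was tested on simulated data.

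The comparison, the model with the block and the gene lists were chosen with earlier results of these data known. Lists are described by counts and medians and were not tested. Symbols of mitochondrial genes were matched through aliases added once the table's spelling was seen. Named genes were those called with a mean of at least 1 CPM in a group and the same sign in 3 pairs (up to 15 a direction, or else the smallest p up to 8), the called or smallest-p members of each list, PTK2 and FN1. The description of 10-library calls, the SPRR family, the NF-kB motif, the promoters shown, the genes of the heatmap and the leave-outs of LPA-to-soft and soft-to-soft libraries were chosen after seeing the data.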

Additional observations from a re-analysis of the deposited data

How the results depend on the processing

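The 5 calls (1 higher, 4 lower) depended on the model. The replicate block decided them: without it there were 0 calls (0 higher, 0 lower) over 12 libraries, with 453 genes at an unadjusted p under 0.05, and 0 over the 6 libraries, with 432. Higher and lower calls were 3 and 7 (10 in all) with RLE size factors, 214 and 135 (349) with DESeq2, 10 and 17 (27) with limma voom, 42 and 33 (75) with no low-count filter, 170 and 84 (254) with only the 6 libraries, and 105 and 59 (164) without soft-to-soft replicates 1 and 2. They stayed at 1 and 4 with a mean CPM of at least 1 and with the counts of 10 libraries halved. Leaving out a replicate number or 1 library gave 0 to 195 calls, 0 to 117 higher and 0 to 78 lower. The lowest count came without replicate number 2 (0 calls, 1404 at an unadjusted p under 0.05) and the highest without soft-to-soft replicate 2 (195). Adjusted p-values over all alternatives ranged from 9.49e-30 to 1.0 for THBD, 3.68e-17 to 1.0 for SPRR2A, 7.84e-13 to 1.0 for EREG, 1.78e-11 to 1.0 for FN1 and 1.56e-09 to 1.0 for HBEGF, while their log2 fold changes kept their sign and stayed within -0.79 to -0.74, -1.71 to -1.31, -0.67 to -0.57, 0.75 to 0.97 and -0.69 to -0.53. The cause of the dependence on the 2 soft-to-soft libraries was not tested. PTK2 missed the threshold in every setting run.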
